A study of Eumeta variegata with 6 samples.

Results

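Cytosolic ribosomal proteins were followed in RNA sequencing of heads of the bagworm moth Eumeta variegata, a species also placed in the genus Clania. A sequence of the assembled transcriptome was counted as a member when its name read as a 40S or 60S ribosomal protein or as a ribosomal protein L, S or P with a number. The name was the NR protein description, and Swiss-Prot stood in for it where that description was empty or uninformative. Names with kinase, mitochondrial, 28S or 39S were left out. This gave 82 sequences of 41283, of which 50 belonged to the large (60S) subunit and 32 to the small (40S) subunit. The groups were male heads (3 libraries) and female heads (3 libraries), and the study set out to find neuropeptides and their receptors. The labels give no age, stage, strain or treatment, and do not say whether a library came from 1 animal or a pool. All p-values therefore refer only to these libraries, whose spread may be technical. The spread used for each sequence was also drawn toward a trend with level.

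The ribosome translates messenger RNA into protein. Its small subunit reads the codons, while the large subunit joins amino acids and releases the growing chain through an exit tunnel. In eukaryotes each subunit holds many proteins, nearly all present once in a particle, so their transcripts are made in similar proportions in most tissues. A few stand apart by role: P0, P1 and P2 form the stalk that recruits elongation factors, L5 and L11 carry the 5S RNA, S27A and L40 are made as fusions to ubiquitin, S30 as a fusion to a ubiquitin-like protein, and S6 is the substrate of S6 kinase. In the assembled table all of these are named, P0 and L5 by more than 1 sequence.

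Levels are given in FPKM, a fragment count divided by the length of the sequence and the size of the library, as the authors deposited it. The libraries summed to between 480295 and 492028 FPKM. FPKM does not give the number of reads, so the depth is unknown and no counting interval can be given. Female 1 stood apart from the other libraries in the ribosomal set: it was the highest library for 48 of the 82 members and the lowest for 12, so it lay outside the range of the other libraries for 60 members (73.2%, against 39.9% of all sequences kept). Male 2 was the lowest library for 44 members (53.7%, against 13.5% of all sequences kept). The sequences kept were mostly far rarer, with a median of 2.67 FPKM in male 1 against 592 FPKM for the members. Shares among other abundant sequences are given below. Where a member's fold change is given below, its value without female 1 stands beside it if the values differ by over 1.5 times.

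The rule found 68 of the 79 standard cytosolic ribosomal protein names, 41 of 47 of the large subunit and 27 of 32 of the small subunit. The names not found were L7A, L21, L23, L27, L30, L41, S7, S10, S15A, S27 and S29. Counting Swiss-Prot names whatever NR said brought the number to 76, and L41, S27 and S29 were still unmatched. The other annotation columns gave the same identity to differing extents. Of the 82 members, 78 carried the same ribosomal protein name in Swiss-Prot, and 75 of the 77 with a KOG entry were in the translation class. A ribosomal Pfam description was found for only 49 members, and a ribosomal protein entry in KEGG for only 42. The numbers of members with any Pfam or KEGG entry are not given here. A pair of members was doubtful. TRINITY_DN246_c0_g1_i1_1, named S9, had a KRI1-like protein in Swiss-Prot and Pfam. TRINITY_DN721_c0_g2_i2_1, named L18, also had folliculin entries in KEGG and Pfam.

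Ribosomal proteins were among the most abundant transcripts of the head. They made up 28 of the 50 sequences with the highest mean FPKM and 47 of the top 100, and 27 of the 47 sequences with a mean of at least 1000 FPKM. All 82 members passed the filter of at least 1 FPKM in at least 3 libraries, and none was listed at 0 in any library, whereas 25.4% of all sequences were at 0 in at least 1. The members' share of summed FPKM was 15.99%, 15.1% and 15.7% in males 1 to 3 and 17.2%, 15.9% and 15.96% in females 1 to 3.

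Among the large subunit sequences, L37 had the highest mean, 4544 FPKM, which placed it 6th of all sequences. L35 followed at 3963 FPKM, L27A at 2999 FPKM, L9 at 2777 FPKM and the stalk protein P1 at 2655 FPKM. Among the small subunit sequences, S18 was highest at 4360 FPKM, followed by S4 at 3196 FPKM, S19 at 3053 FPKM, S6 at 2661 FPKM and S16 at 2583 FPKM. Neighbours in these orders mostly lay within the spread of the libraries: L9 ranged from 2491 to 2976 FPKM and P1 from 2369 to 3512 FPKM.

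Taking the most abundant sequence of each name, 55 of 68 names had at least 100 FPKM, with a median of 990 FPKM and a 45.01-fold range between 101 and 4544 FPKM. The other 13 names, S3, S2, L38, S12, L39, L15, S15, L7, L37A, L40, S26, S23 and S11, had only a sequence below 100 FPKM. For S2, S3, L38 and L40 a more abundant sequence carried the name in Swiss-Prot while NR called it otherwise, so these low levels are those of the named sequence and not of the protein. S3, which lines the messenger RNA entry of the small subunit, is an example: the member TRINITY_DN7770_c0_g1_i1_2 had 1.64, 0.680 and 0.278 FPKM in males and 1.49, 0.612 and 2.10 FPKM in females, and a sequence of that Swiss-Prot name outside the rule averaged 566 FPKM.

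**Figure D1:**
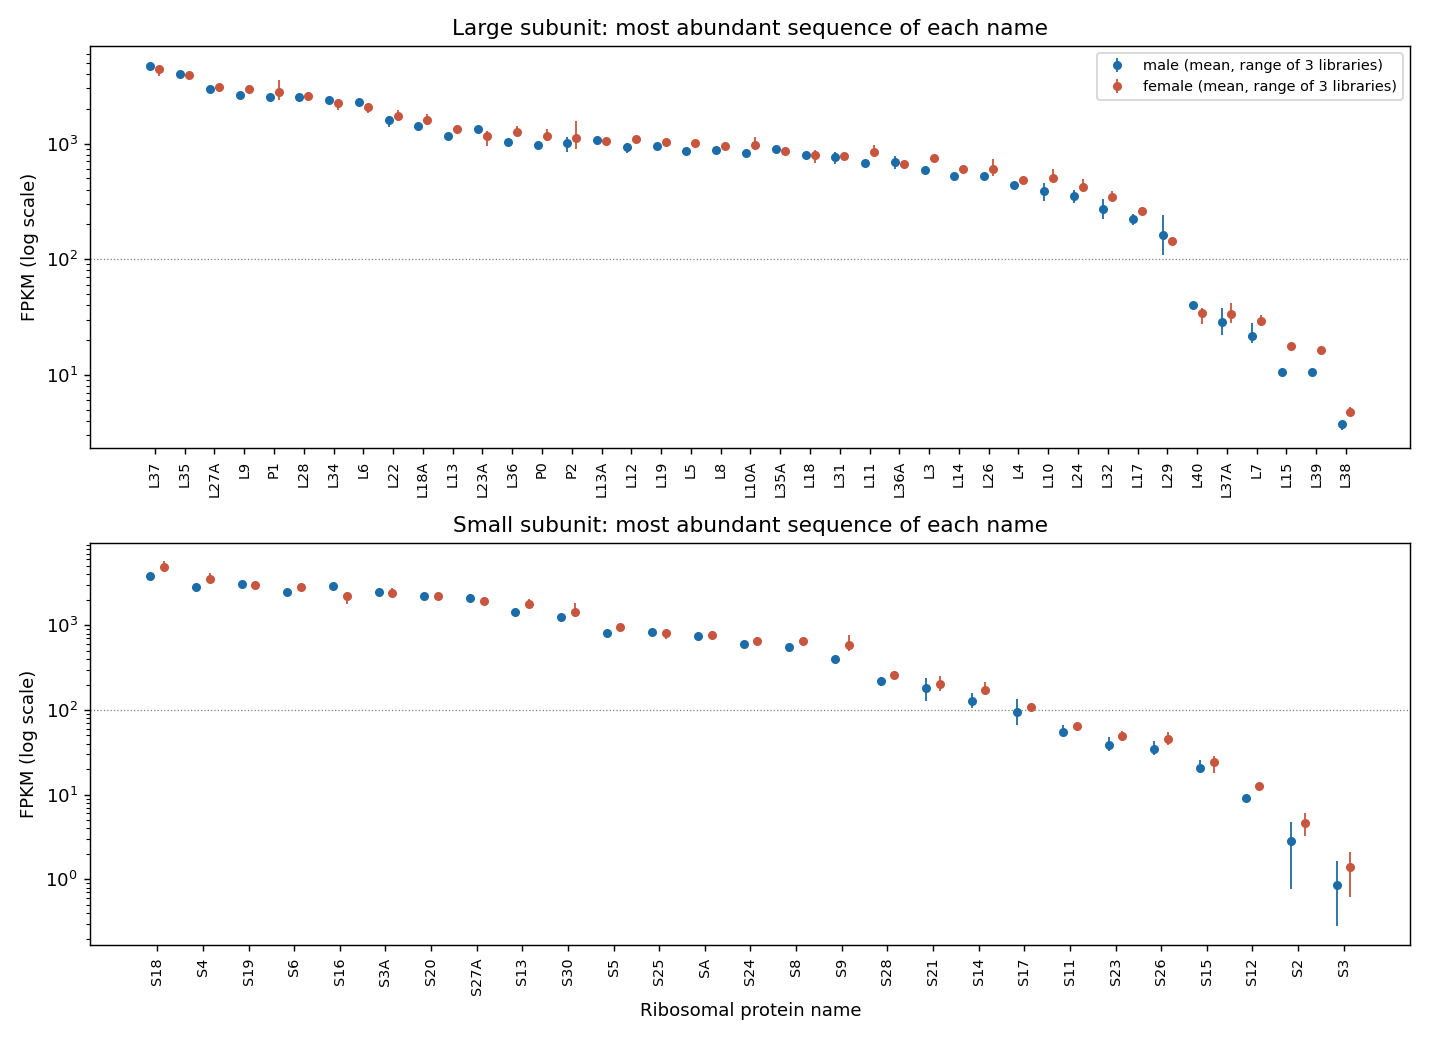
FPKM on a log axis for the most abundant sequence of each of the 68 names, large subunit above and small subunit below, as the mean (point) and range (line) of 3 male libraries and, to their right, 3 female libraries. The dotted line marks 100 FPKM, and 13 names, L40 to L38 and S11 to S3 at the right ends, lie below it.

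The comparison of male with female heads asked which of these transcripts differ between the sexes. Of the 82 members, 3 were called different and all 3 were higher in females: L15, L39 and S12. The call was an adjusted p below 0.05 in limma's moderated test on log2(FPKM + 1), with Benjamini-Hochberg adjustment over all 35198 sequences kept, and fold changes are the male minus the female mean on that scale. The same rule called 7.11% of all sequences kept, 4.4% higher in males and 2.7% higher in females. The count of members called is thus near the background and is not a result about ribosomal proteins. All 3 called sequences were rare, between 10.9 and 14.1 FPKM on average, and each was the only member of its name. The names with at least 100 FPKM had a median of 990 FPKM. No called sequence had a Pfam description with ribosomal or 60S, and L39 was named from Harmonia axyridis. The calls are those of the named sequences, and whether these are the main transcripts of the 3 proteins was not tested. With the library split described below as a term, 2 of the 82 were called, against 3.23% of all sequences, and without female 1 it was also 2, against 5.05%.

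L15, a large subunit protein that binds ribosomal RNA, was represented by TRINITY_DN7290_c0_g2_i1_1. It had 10.6, 10.6 and 10.5 FPKM in male heads, against 18.1, 18.8 and 16.2 FPKM in female heads. Every female library lay above every male library. The log2 fold change was -0.69 ± 0.071 (SE, n = 3 each; limma adjusted p = 0.00535). L15 kept its call under every alternative fit, with a highest adjusted p of 0.0418. Without female 1 its log2 fold change was -0.67 (limma adjusted p = 0.0177).

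L39, a very small protein of the exit tunnel, was represented by TRINITY_DN7104_c0_g1_i1_1, which had 10.3, 11.1 and 10.3 FPKM in males and 16.8, 15.4 and 17.3 FPKM in females. The sexes did not overlap. The log2 fold change was -0.59 ± 0.070 (SE, n = 3 each; limma adjusted p = 0.00763), and without female 1 it was -0.58 (limma adjusted p = 0.0242). L39 lost its call in 1 alternative fit (limma adjusted p = 0.0604).

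S12, a protein of the small subunit's head region, was represented by TRINITY_DN3586_c0_g1_i13_1, with 8.57, 9.19 and 9.89 FPKM in males and 13.7, 12.8 and 11.5 FPKM in females. These values also did not overlap. The log2 fold change was -0.42 ± 0.092 (SE, n = 3 each; limma adjusted p = 0.0487). This call was lost when any 1 library was left out and under 11 of the alternative fits in all, with a highest adjusted p of 0.142.

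**Figure D2:**
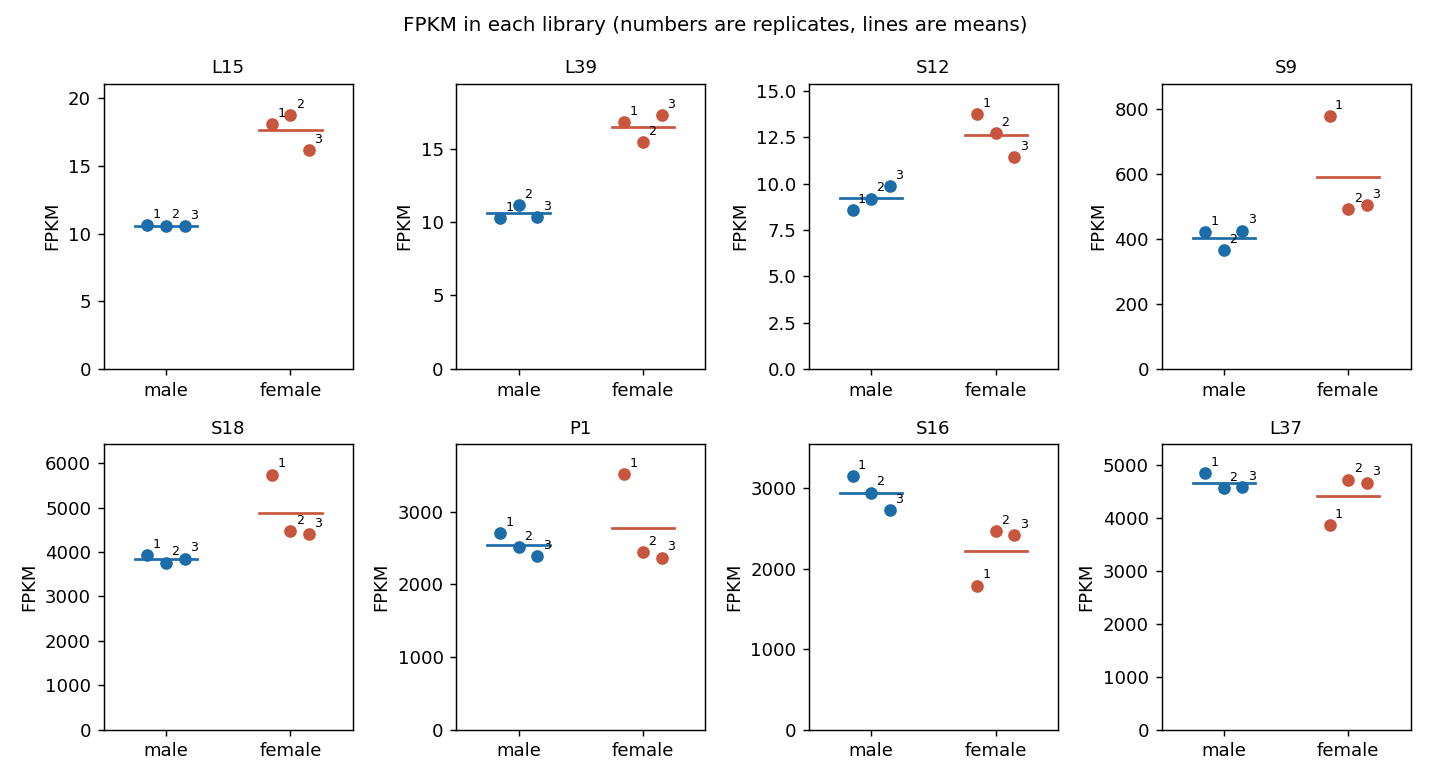
FPKM in each library for 8 members, L15, L39, S12, S9, S18, P1, S16 and L37, with male libraries left of female libraries and the mean of each sex as a line. L15, L39 and S12 show separate sexes at low level, whereas in S9, S18 and P1 female 1 is far above the other libraries and in S16 and L37 it is the lowest.

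None of the 56 members with a mean of at least 100 FPKM was called by limma. Of the 416 other sequences above that threshold 28.8% were, 17.1% higher in females and 11.8% higher in males. The median residual SD on the log2 scale was 0.133 in the abundant members and 0.108 in the other abundant sequences. The median SE of the fold change was 0.142 against 0.0847, but limma draws this SE toward a trend with level. For L35 the SE was 0.207, though its 6 libraries spanned only 0.156 on the log2 scale. High adjusted p-values of the most abundant members thus do not measure the scatter of their own libraries alone. The members also lay higher above the threshold, with a median of 945 FPKM in male 1 against 173 FPKM. The shares called are thus not compared at matched levels, and the part of level in them was not tested. At an unadjusted p below 0.05 limma listed 18 of the 82 members, 17 higher in females and 1 higher in males, against 23.3% of all sequences in either direction and 9.38% higher in females. Groups without overlap were seen in 28 members higher in females, against 12% of all sequences, and in 3 higher in males, against 18.2%, where 30.2% of all sequences had no overlap in either direction.

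The members as a set leaned slightly toward females. Their median log2 fold change was -0.22, with 64 of 82 below 0, whereas the median over all sequences kept was 0.05. Members of at least 100 FPKM had a median of -0.17, with 41 of 56 below 0, and the 26 rarer members had -0.37, with 23 below 0; the other abundant sequences had -0.03. Without female 1 the median of the members was -0.14 and that of all sequences was 0.04. Earlier work on the same table had set male 2, male 3 and female 2 against male 1, female 1 and female 3. That split was reported by the ending of the sequence names. It was read from the same table, and the labels name no such batch. Within the first set of libraries the members' median difference was -0.14, with 65 below 0, and within the second -0.20, with 62 below 0. These are descriptions, since members share libraries and are not replicates.

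**Figure D3:**
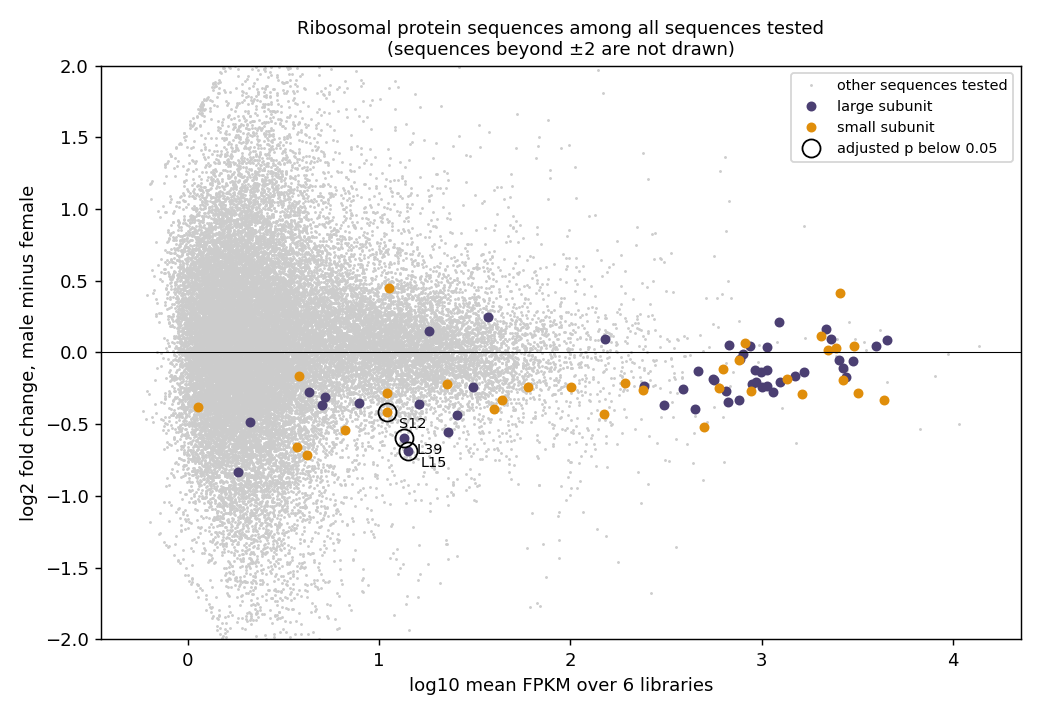
Male minus female log2 fold change on the log2(FPKM + 1) scale against the log10 of the mean FPKM over 6 libraries, for the ribosomal protein members (coloured by subunit) and all other sequences tested (grey), with sequences beyond a fold of ±2 not drawn. Most members sit a little below 0, around their median of -0.22, and the 3 called ones, L15, L39 and S12, lie near 10 FPKM.

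The summed FPKM of the members was 75593 ± 3107 in males and 80186 ± 3908 in females (SD, n = 3 each), a difference of -4592, or -8299 with median-of-ratios scaling of the libraries. The sums were 78656, 72443 and 75681 in males 1 to 3 and 84698, 77853 and 78007 in females 1 to 3. In the deposited FPKM male 1 lay above females 2 and 3, so the sexes overlapped, and without female 1 the female mean was 77930. Median-of-ratios scaling divides male 1 by 1.04 and females 2 and 3 by 0.998 and 0.989. That puts male 1 below both females, so the overlap depends on the scaling. In bulk heads, fewer cells of a type and less RNA per cell cannot be told apart.

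Several abundant members had larger differences that did not pass the test. L3, a core protein near the catalytic centre, had 589, 558 and 608 FPKM in males and 777, 730 and 726 FPKM in females. The sexes did not overlap and L3 came closest to a call among the abundant members, with a log2 fold change of -0.35 (limma adjusted p = 0.0512). L3 did pass in 4 alternative fits, with a lowest adjusted p of 0.0231 from limma under robust shrinkage. S9, a small subunit protein that takes part in decoding accuracy, had 421, 366 and 426 FPKM in males and 778, 492 and 503 FPKM in females in its main sequence, TRINITY_DN373_c0_g1_i3_2. Its log2 fold change was -0.52 (limma adjusted p = 0.166), and -0.30 without female 1, which was 1.56 times the mean of the other females.

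S16, a small subunit protein whose tail reaches toward the decoding site, was the abundant member with the largest difference in the other direction. It had 3154, 2946 and 2729 FPKM in males and 1789, 2470 and 2414 FPKM in females. All males lay above all females, with a log2 fold change of 0.42 ± 0.20 (SE, n = 3 each; limma adjusted p = 0.272), and female 1 was at 0.733 times the mean of the other females. Leaving out single libraries moved the S16 fold between 0.27, without female 1, and 0.50. The doubtful S9 sequence TRINITY_DN246_c0_g1_i1_1, the KRI1-like one, averaged 13.1 FPKM in males and 9.31 FPKM in females (log2 fold change 0.45, limma adjusted p = 0.0940).

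In the stalk, female 1 set both small proteins apart from the other libraries. P1 had 2707, 2514 and 2389 FPKM in males and 3512, 2439 and 2369 FPKM in females. P2, its partner, had 1028, 838 and 1149 FPKM in males and 1552, 924 and 896 FPKM in females. Female 1 was the highest library in both, and the other females overlapped the males. The log2 fold changes were -0.11 for P1 (limma adjusted p = 0.820) and -0.12 for P2 (limma adjusted p = 0.815), and without female 1 they became 0.08 and 0.13. P0, the base of the stalk, averaged 979 ± 51.1 FPKM in males and 1157 ± 159 FPKM in females (SD, n = 3 each) in its more abundant sequence (log2 fold change -0.23, limma adjusted p = 0.343, and -0.12 without female 1).

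The carriers of 5S RNA were both at higher values in females without passing the test. L5 had 888, 829 and 882 FPKM in males and 940, 994 and 1072 FPKM in females (log2 fold change -0.21, limma adjusted p = 0.257). L11 had 684, 624 and 719 FPKM in males and 979, 773 and 803 FPKM in females (log2 fold change -0.33, limma adjusted p = 0.169, and -0.22 without female 1). Neither had overlapping sexes.

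The ubiquitin fusions among the members did not move as a group. S27A averaged 2118 ± 207 FPKM in males and 1953 ± 163 FPKM in females (SD, n = 3 each), and the sexes overlapped. S30 had 1294, 1167 and 1311 FPKM in males and 1824, 1239 and 1281 FPKM in females, with female 1 alone above the males. The L40 member had 41.9, 37.3 and 41.2 FPKM in males and 27.6, 37.6 and 36.7 FPKM in females. The most abundant sequence with the L40 name in Swiss-Prot, outside the rule, leaned the other way. It had 227, 203 and 334 FPKM in males and 322, 354 and 347 FPKM in females, with overlap of the sexes. The log2 fold changes of the members were 0.12 for S27A, -0.18 for S30 and 0.25 for L40, none called by limma (adjusted p = 0.718, 0.606 and 0.298). Without female 1 these were 0.05 for S27A, -0.0047 for S30 and 0.11 for L40.

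S6, the phosphorylated protein used as a readout of growth signalling, averaged 2479 ± 69.4 FPKM in males and 2843 ± 257 FPKM in females (SD, n = 3 each), and its sexes did not overlap (log2 fold change -0.19, limma adjusted p = 0.552, and -0.12 without female 1). SA, which is related to the laminin receptor of vertebrates, averaged 742 ± 30.5 FPKM in males and 773 ± 83.1 FPKM in females (SD, n = 3 each; log2 fold change -0.05, limma adjusted p = 0.812, and 0.03 without female 1). S18, the most abundant small subunit member, had 3931, 3761 and 3851 FPKM in males and 5740, 4473 and 4405 FPKM in females. Every female exceeded every male in S18, and the log2 fold change was -0.33 (limma adjusted p = 0.475), or -0.21 without female 1. S4 had 3002, 2910 and 2700 FPKM in males and 4181, 3191 and 3190 FPKM in females, the same arrangement as S18, with a log2 fold change of -0.28, or -0.15 without female 1.

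L37, a zinc-binding protein of the large subunit, had 4853, 4560 and 4591 FPKM in males and 3861, 4726 and 4671 FPKM in females. Female 1 was the lowest library there, and the other females lay within the male range, with a log2 fold change of 0.08, or -0.0100 without female 1. The remaining named members among the most abundant, L35, L27A, L9 and S19, had log2 fold changes between -0.17 for L9 and 0.05 for L35, and none was called by limma (adjusted p between 0.599 and 0.919). Without female 1 L27A moved to -0.012, against -0.062 with all libraries, and S19 to 0.10, against 0.04.

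The library pattern ran across many members at once. Among the 56 members of at least 100 FPKM, female 1 was highest in 36 (64.3%, against 37.3% of the other abundant sequences) and lowest in 9 (16.1% against 21.9%). Male 2 was the lowest library in 36 (64.3%, against 27.9%), and male 1 lay above male 2 in 56 of 56. Females 2 and 3, in contrast, were close: their values differed by a median of 2.36%, and 47 of the 56 differed by less than 5% of their mean, while the other abundant sequences differed by 5.07%. Between female 1 and female 2 the median gap was 17.2% in the members and 11.7% in the other abundant sequences. Between males 1 and 2 it was 10.02% and 5.77%.

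Male 3 lay nearer to females 2 and 3 than to male 1 in the ribosomal set. Its median gap was 5.81% to female 2 and 5.46% to female 3, against 7.14% to male 1. In the other abundant sequences the order was the reverse, with 14.9%, 15.6% and 5.17%. In some members male 3 stood far above the other males. S17 had 82.8, 66.6 and 134 FPKM in males and 107, 109 and 106 FPKM in females, and S21 had 174, 127 and 238 FPKM in males and 254, 192 and 169 FPKM in females, where male 3 was the highest male library. The difference in library order between the ribosomal set and the rest was not tested.

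Female 1 was not higher for every member. The ratio of female 1 to the mean of females 2 and 3 had a median of 1.09 over the 82 members and ran from 0.648 to 1.72. Among the abundant members it ran from 0.733 in S16 to 1.71 in P2, with a median of 1.104, against 1.04 in the other abundant sequences. The 12 sequences for which female 1 was the lowest library were S15, L18, L35, S25, L37, L34, S27A, L6, L40, S16 and both L23A sequences. L23A, which sits at the tunnel exit, had 1366, 1356 and 1252 FPKM in males and 943, 1279 and 1229 FPKM in females in its main sequence.

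**Figure D4:**
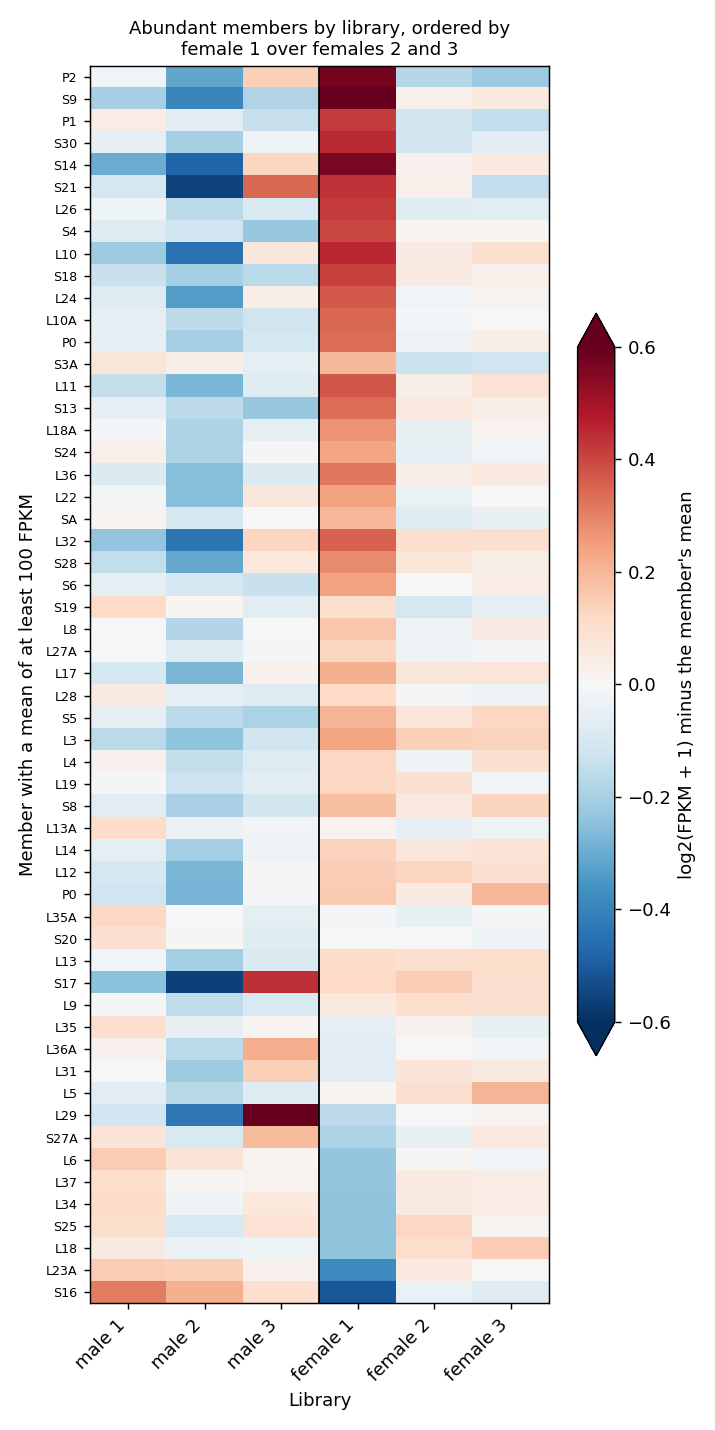
Deviation of log2(FPKM + 1) from each member's mean over the 6 libraries, for the 56 members of at least 100 FPKM, with male libraries left of female libraries. Female 1 is above the mean for most members and below it for a smaller block that holds S16, L23A and L37, male 2 is below it for most, and females 2 and 3 look alike.

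Large and small subunit members differed little in the sex comparison. Limma called 2 of 50 large subunit members and 1 of 32 small subunit members, each higher in females, against 7.11% of all sequences. The median log2 fold change was -0.20 for the large subunit, with 39 of 50 below 0, and -0.25 for the small subunit, with 25 of 32 below 0. The difference of these medians was 0.05, and it was -0.0026 without male 1, so no order of the subunits can be read from it.

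The large subunit summed to 46050 ± 2159 FPKM in males and 48458 ± 1368 FPKM in females (SD, n = 3 each). The small subunit summed to 29543 ± 1081 FPKM in males and 31727 ± 2542 FPKM in females. The ratio of large to small was 1.56, 1.52 and 1.60 in males and 1.44, 1.58 and 1.57 in females. Female 1 had the lowest ratio and the other females lay within the male range, so the sexes overlapped. In female 1 the small subunit sum was 34660 FPKM, against 30164 and 30358 FPKM in females 2 and 3.

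Sequence names end in 1 or 2, a suffix whose meaning is not given in the sources used here. Of the members, 42 ended in 1 (51.2%, against 53.6% of all sequences) and 40 in 2. Limma called 3 of the 42 and 0 of the 40, against 7.11% of all sequences. At an unadjusted p below 0.05 it listed 9 in each, against 23.3% of all sequences. The median log2 fold change was -0.19 for ending 1 and -0.25 for ending 2, with 32 below 0 in each. With 1 sequence a name the difference of the medians was 0.01, against 0.06 with all members.

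The ratio of the summed FPKM of ending 1 to that of ending 2 was 0.804, 0.795 and 0.810 in males and 0.767, 0.775 and 0.767 in females. The sexes did not overlap in this ratio, and each sum holds a different set of proteins. The sums for ending 1 were 33672 ± 1488 FPKM in males and 34871 ± 1635 FPKM in females, and those for ending 2 were 41922 ± 1632 FPKM in males and 45315 ± 2280 FPKM in females (SD, n = 3 each). The median deviation of the members from their own mean had the same sign for both endings in each library. For ending 1 and ending 2 it was -0.05 and -0.05 in male 1, -0.20 and -0.18 in male 2, -0.02 and -0.06 in male 3, 0.20 and 0.23 in female 1, 0.04 and 0.05 in female 2, and 0.05 and 0.04 in female 3. No member of either ending was listed at 0 in any library.

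**Figure D5:**
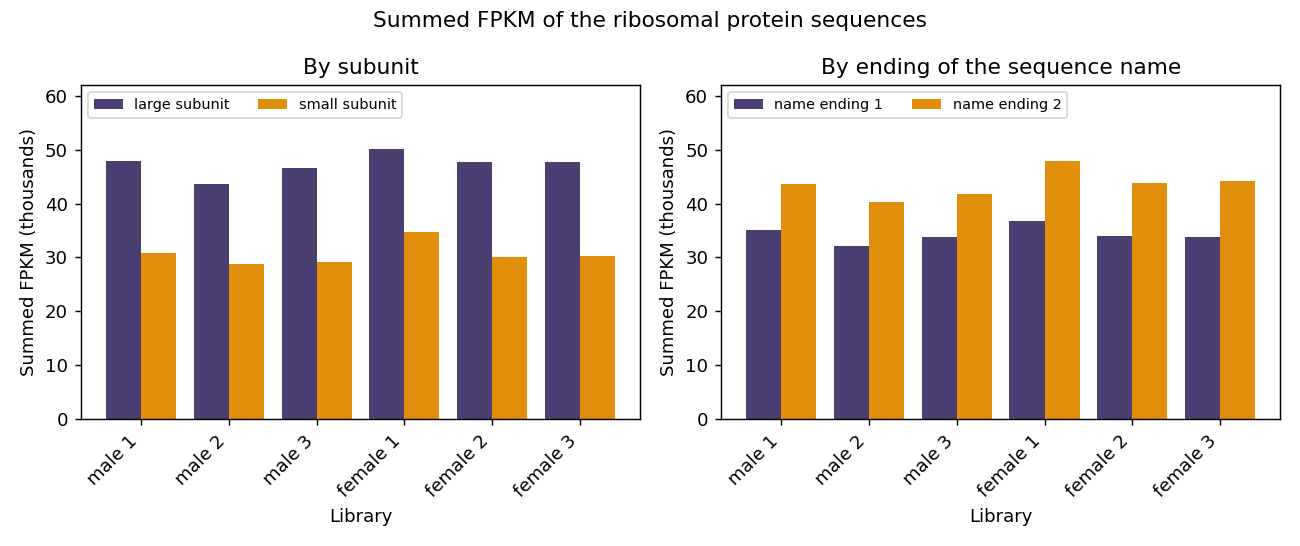
Summed FPKM per library, on an axis in units of 1000 FPKM, by subunit (left panel) and by ending of the sequence name (right panel), with male libraries left of female libraries. The small subunit bar of female 1 is the tallest of its kind, which gives this library its large to small ratio of 1.44.

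For 13 names more than 1 sequence was present, 27 sequences in all, and 9 of these names had both endings. In 12 of them the leading sequence held at least 97.6% of the name's FPKM. P0 was the exception, with 62.1% in TRINITY_DN3393_c0_g1_i5_1 and 37.9% in TRINITY_DN616_c1_g1_i6_2, which end in different suffixes. The second P0 sequence had 596, 533 and 644 FPKM in males and 720, 670 and 742 FPKM in females, and its log2 fold change of -0.27 was close to the -0.23 of the first. The sequences of L5, of L6 and of L19 each share an assembly component, so they may be parts of the same gene, and near-identical copies can split reads.

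The minor sequences often had larger fold changes than the leading one at far lower level. For S4 the minor sequence had 4.23, 2.495 and 2.25 FPKM in males and 5.16, 5.33 and 5.74 FPKM in females (log2 fold change -0.72, limma adjusted p = 0.0957), while the leading sequence had -0.28. For L5 the minor sequence had 21.8, 16.8 and 16.5 FPKM in males and 34.4, 24.5 and 23.97 FPKM in females (log2 fold change -0.56, limma adjusted p = 0.108). For S3A the leading sequence had a log2 fold change of 0.03, or 0.14 without female 1, and the minor one -0.54. The minor sequence of L27A had -0.35, and that of S19 had -0.16, or -0.10 without female 1. None of the minor sequences was called with all libraries. Without male 1 the S4 minor sequence was (log2 fold change -0.93, limma adjusted p = 0.0495), and the L5 one gained a call in 1 alternative fit (limma adjusted p = 0.0414). Without female 1 the minor sequences of S4 and L5 stood at -0.74 and -0.40.

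Other genes of translation were compared by lists of names. Among initiation factors 4 of the 49 kept were called by limma, 1 higher in males and 3 higher in females, where over all sequences the shares were 7.11% in all, 4.4% higher in males and 2.7% higher in females. Of 13 elongation and release factors 1 was called, of 16 ribosome-associated factors 2 were, and of 10 genes of S6 kinases and TOR signalling none was called, with 2 at an unadjusted p below 0.05. The median fold changes of these lists were between -0.05 and 0.01 on the log2 scale, against -0.22 for the ribosomal proteins and 0.05 for all sequences. With the library split as a term 1 of these 7 calls was left, and with a single library left out between 1 and 3.

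The call that was kept with the split was a sequence named eIF3 subunit E from Leguminivora, part of the scaffold that loads messenger RNA, at 83.7 ± 1.45 FPKM in males and 106 ± 0.868 FPKM in females (SD, n = 3 each; log2 fold change -0.34, limma adjusted p = 0.00706). A rarer sequence of the same subunit name, from Bombyx, ran the other way, at 34.2 ± 1.24 FPKM in males and 21.9 ± 4.32 FPKM in females (log2 fold change 0.63, limma adjusted p = 0.0401). Also higher in females were eIF2A at 1.81 FPKM in males and 7.60 FPKM in females and eIF4G3, a scaffold of the cap-binding complex, at 4.90 FPKM in males and 7.68 FPKM in females. Polyadenylate-binding protein 2 averaged 47.2 FPKM in males and 60.3 FPKM in females, and SRP54, which guides ribosomes to the endoplasmic reticulum, 82.1 FPKM in males and 97.3 FPKM in females. The termination factor eRF1 averaged 144 FPKM in males and 175 FPKM in females (log2 fold change -0.28, limma adjusted p = 0.0327). Elongation factor 1-alpha, which brings aminoacyl tRNA to the ribosome, averaged 4505 FPKM over all libraries, and its list summed to 5512 to 5880 FPKM in males and 6283 to 6494 FPKM in females. The 4E-binding protein, a TOR target that restrains cap-dependent initiation, had 211 ± 5.38 FPKM in males and 188 ± 7.93 FPKM in females (log2 fold change 0.17, limma adjusted p = 0.117).

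Mitochondrial ribosomal proteins, which belong to the separate ribosome of that organelle, had a median log2 fold change of -0.05 over 71 sequences. Limma called 3 of them, against 7.11% of all sequences, and all 3 were higher in females: L51 (51.6 FPKM in males and 72.2 FPKM in females), L13 (64.1 FPKM in males and 80.8 FPKM in females) and L44 (40.8 FPKM in males and 50.6 FPKM in females). With the library split as a term 0 were called, with adjusted p from limma between 0.0593 and 0.0763. With a library left out between 0 and 3 were called, 0 without male 2, male 3, female 2 or female 3 and 1 without male 1, and with median-of-ratios scaling 6.

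Lists of tissue markers were matched by words in the sequence names, and a name alone does not show the tissue of origin. Neuron markers summed to 331 to 350 FPKM in males and 331 to 347 FPKM in females. Eye markers summed to 55.5 to 58.5 FPKM in males and 39.1 to 47.2 FPKM in females, and muscle markers to 3300 to 3706 FPKM in males and 2300 to 3000 FPKM in females. Fat body markers summed to 35.04 to 41.8 FPKM in males and 95.6 to 115 FPKM in females. Testis markers (27 sequences) summed to 283 to 298 FPKM in males and 312 to 318 FPKM in females, ovary markers (12) to 57.3 to 61.1 FPKM in males and 54.5 to 55.9 FPKM in females, gut markers (29) to 327 to 350 FPKM in males and 324 to 351 FPKM in females, and silk gland markers (4) to 32.2 to 36.3 FPKM in males and 19.7 to 37.9 FPKM in females. No marker was at 0 in every library. The sums of the eye, muscle, fat body, testis and ovary lists had no overlap between the sexes, but their members did not all go the same way. Limma called 5 of 15 muscle markers higher in males and 3 higher in females, with muscle actin alone at 1675 FPKM on average. Over all sequences kept the shares were 4.4% and 2.7%. Calls higher in males and in females were 1 and 1 for neuron, 1 and 0 for eye and 0 and 3 for fat body. They were 1 and 0 for ovary, 1 and 2 for testis, 3 and 3 for gut and 0 and 0 for silk gland. Of the fat body markers kept, 4 had a fold change above 0 and 5 below. The ovary markers kept had 3 and 3, with vasa alone at 31.1 FPKM. The gut list matched the word trypsin, and its most abundant sequence was an inter-alpha-trypsin inhibitor heavy chain H3 at 155 FPKM. The testis list matched the word sperm, and its most abundant sequence was sperm-associated antigen 7 at 68.9 FPKM. Whether these sequences mark those tissues was not tested. The part of these tissues in the ribosomal protein values was not tested.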

How the data were processed

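Total RNA of heads was made into stranded mRNA libraries, per the labels' protocols. Trimmomatic, HTSeq and R 3.2.0 appear, with no roles, in the submitters' processing notes. The sequence IDs carry the prefix of the Trinity assembler. Its version, the aligner and any filters: not given in the sources used here. FPKM for each assembled sequence in each of 6 libraries was deposited by the authors, with their annotation. Tests for counts were not used, because the deposited values are FPKM. Below 1 FPKM, library-to-library ratios did not pile up at whole-read values (no window of 0.02 log2 held more than 3.85%). As the depth is unknown, that check cannot decide whether counts could be recovered.

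On the log2(FPKM + 1) scale, sequences with at least 1 FPKM in at least 3 libraries were kept (35198), and limma 3.58.1 in R 4.3.3 compared male with female libraries with a mean-variance trend. Simulated data had 200 changed sequences among 35198. Recovery was 59% at a log2 fold of 1 and 90% at 2, with 8 false calls. The changed sequences had a mean log2(FPKM + 1) above 2, and the noise was independent between sequences and libraries. The members' folds ran from -0.83 to 0.45, and recovery at such smaller folds was not simulated. Named sequences are the members called, the 5 most abundant of each subunit, members of the stalk, 5S particle and ubiquitin fusions with S6, SA, S3 and L39, and the 3 largest folds in each direction at a mean of at least 10 FPKM. Added to these are up to 5 names with a sequence of each ending. Each other list gives up to 3 called sequences in each direction, or its most abundant when none was called. L3 and S9 and the sequences described for the library pattern were added after their values were seen. Replicate numbers did not pair the libraries. The members and lists were chosen with earlier results of these data known. Pseudocounts, filters, scalings, a replicate block, the library split and single libraries left out were tried as alternatives. The mitochondrial list, the Swiss-Prot names and the removal of the doubtful members were added after the data were seen. No sequence is printed, as no sequence was used here.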

Additional observations from a re-analysis of the deposited data

How the results depend on the processing

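The count of members called stayed between 2 and 4 under every alternative, always higher in females (2 to 3 with a library left out), and their median log2 fold change between -0.29 and -0.14. L15 kept its call in all of them, L39 lost it with the replicate block (limma adjusted p = 0.0604), and S12 lost it under 11. Calls were gained by L3 under 4 alternatives (pseudocount 0.5, a mean filter, quantile scaling and robust shrinkage; limma adjusted p 0.0231 to 0.0486), by the minor L5 sequence with the block (0.0414), by the minor S4 sequence without male 1 (0.0495) and by L7 without male 3 (0.0471). The count over all sequences, 2501, was 631 with the replicate block, 1136 with the library split and 822 to 1776 with a library left out. The block is a number only: deviations of same-numbered libraries correlated at 0.106, 0.116 and -0.0508, and male 3 correlated best with female 2. The 7 calls among other translation genes were 14 with median-of-ratios scaling, 1 with the block, 1 with the split and 1 to 3 with a library left out, and the 3 mitochondrial calls were 5 with quantile scaling and 0 with the block. The summed difference of -4592 FPKM was -8299 with median-of-ratios scaling, and -6124 to -2336 with a library left out. The subunit difference ran from -0.0026 to 0.062 with a library left out, and the ending difference from 0.0051 to 0.064, or 0.014 with 1 sequence a name. Directions reversed for L35 (-0.023), S19 (-0.030) and S3A (-0.039) with median-of-ratios scaling. With a library left out the folds ran from -0.0071 to 0.10 for S19, -0.26 to 0.13 for P2, -0.0100 to 0.14 for L37, -0.21 to 0.076 for P1, -0.10 to 0.033 for SA and -0.023 to 0.14 for S3A. The cause was not tested. Depth is unknown, so low members such as S3 carry an error that cannot be given.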

Other observations

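Swiss-Prot gave a cytosolic ribosomal protein name to 18 sequences that the rule did not take, because NR called them unnamed, numbered or otherwise. Several were as abundant as the members. S10 had 3711, 3311 and 3575 FPKM in males and 3380, 3353 and 3332 FPKM in females. S7 had 2803, 2571 and 2697 FPKM in males and 3208, 2797 and 2794 FPKM in females, and L21 had 2574, 2332 and 2499 FPKM in males and 2651, 2499 and 2496 FPKM in females. In all of them male 2 was the lowest male library, as among the members. L7A had 710, 644 and 662 FPKM in males and 851, 682 and 694 FPKM in females. L27 had 72.1, 69.5 and 120 FPKM in males and 162, 129 and 131 FPKM in females, without overlap of the sexes. Of the 18 sequences, 4 had no overlap with females higher and 0 with males higher, against 12% and 18.2% of all sequences. Limma called 1 of the 18, higher in females, against 2.7% of all sequences. Their median log2 fold change was -0.27, with 16 below 0. Together these 18 sequences summed to 11798 ± 622 FPKM in males and 12326 ± 653 FPKM in females (SD, n = 3 each). L29, a small protein of the large subunit, had 136, 109 and 239 FPKM in males and 132, 147 and 149 FPKM in females, so male 3 stood at 1.94 times the mean of the other males.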
